A study of Mus musculus with 10 samples.

Results

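The 96 genes described here are named as subunits of the 5 complexes of oxidative phosphorylation. They lie in mitochondrial DNA (13) or in the nucleus (83, of which 4 are annotated as processed pseudogenes). They were chosen by gene symbol (Nduf, Sdh, Uqcr, Cox, Atp5 and mt- names, leaving out symbols with -ps) and by a level of at least 1 TPM in at least 5 libraries, with no use of the genotypes. Of 55487 gene rows, 108 matched the names. Of these, 8 carried -ps and 4 missed the level (Cox7b2, Cox8b, Cox8c and a further row named Atp5o, all listed at 0 in every library). The nuclear members comprised 38 of complex I, 4 of complex II, 8 of complex III, 16 of complex IV and 17 of complex V. Those of mitochondrial DNA comprised 7 of complex I, 1 of complex III, 3 of complex IV and 2 of complex V. Some subunits are named otherwise and fell outside the rule, among them Cox4i1, Cyc1 and Ndufab1. They are given with the other genes of the pathway.

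The series asked what phosphorylation of a serine of Ptpn22, the phosphatase Pep, does in CD8+ T cells inside tumours. MC38 cells, a mouse colon carcinoma line, were injected into 8-week-old mice with wild-type Pep (WT, 5 mice) or with that serine changed to alanine (S452A, 5 mice). Tumours were digested with collagenase after 18 days, CD8+ T cells were sorted, and libraries were made from 40 ng of RNA. The title and labels write S452A and the design text S425A. All 10 libraries came from tumour-bearing mice, 1 library a mouse, and there was no untreated group.

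Oxidative phosphorylation passes electrons from NADH through complex I, or from succinate through complex II, to complex III, cytochrome c and the oxygen-reducing complex IV. Complexes I, III and IV pump protons across the inner mitochondrial membrane, and complex V, the ATP synthase, uses their return to make ATP. All complexes but II mix subunits from both genomes. Mitochondrial DNA is transcribed as long precursors that are cut into mRNAs, while the nuclear subunits are transcribed one by one and their proteins imported. Macrophages and T cells shift between this pathway and glycolysis with activation.

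TPM (a transcript abundance unit) scales each library to a fixed total and each gene by its length, but it keeps no sequencing depth, which is unknown here. Levels of different genes are given as listed. They depend also on how reads were divided between genes that share sequence. The libraries labelled CD8+ T cells held little T cell RNA: 8 T cell genes together reached 12.1 to 126 TPM in WT and 15.0 to 135 TPM in S452A. The 8 macrophage genes Apoe, C1qa, C1qb, Cd14, Cd68, Csf1r, Adgre1 and Lyz2 together reached 16486 to 23049 TPM, each averaging at least 100 TPM. Values of the members are therefore values of this mixture, and in bulk RNA fewer cells of a type and less RNA per cell cannot be told apart.

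Several members share their sequence with other genes of the annotation, and their level depends on how reads were divided. A block of 7 annotated copies of mitochondrial genes lies on the minus strand of chromosome 1, at chr1:24611535-24616197 (GRCm38). The copies of mt-Atp6 (Gm10925, 678 aligned bases), mt-Co3 (Gm28437, 783 bases) and mt-Nd4l (Gm10222, 294 bases) were 100% identical to the mitochondrial genes. Gm28438 differed from mt-Nd3 by 1 base in 345. That base stands in capitals in the opening stretch of both genes, shown because it was the sole aligned base that tells their reads apart (chrM:9459-9491 and chr1:24613087-24613119, GENCODE M21, each on its coding strand).
mt-Nd3: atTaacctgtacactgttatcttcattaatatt
Gm28438: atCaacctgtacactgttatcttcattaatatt

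Shared bases also occur within mitochondrial DNA itself. The ATP synthase genes mt-Atp8 and mt-Atp6 overlap by 43 bases (chrM:7927-7969), which open mt-Atp6 with the start codon and close mt-Atp8 with the stop codon, both in capitals. These bases lie on one precursor and belong to both genes.
mt-Atp8 and mt-Atp6: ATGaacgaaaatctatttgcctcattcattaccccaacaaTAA

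Between genotypes, the 13 mitochondrially encoded genes had lower means in S452A and the nuclear genes a median difference near 0. The difference in log2(TPM + 1), S452A minus WT, was below 0 for 13 of 13 mitochondrially encoded members, with a median of -0.42 and a range from -0.88 to -0.15. It was below 0 for 57 of 83 nuclear members, with a median of -0.05 (range -0.88 to 0.16). Over all 13930 genes tested, 53.4% were below 0 and the median was -0.02. No member passed the test (limma, Benjamini-Hochberg adjusted over all 13930 genes, threshold 0.05), where 1 gene in all passed, 0.00718% of those tested. At an unadjusted p under 0.05, 7 members were lower in S452A (6 mitochondrially encoded and Ndufb10) and 0 higher, against 2.73% of all genes on the lower side. In either direction, members under this p numbered 2 without WT 1, 3 without WT 5, 4 without S452A 3 and 13 without WT 4. They numbered 11 with T cell content as a covariate. Over all genes tested the same counts were 510, 601, 492, 773 and 645, against 660 in the main fit. The TPM of the genotypes did not overlap for 1 member, mt-Atp6, against 0.646% of all genes. Apart from mt-Nd6, which lies on the opposite strand, these genes share a precursor, and some overlap, so their agreement in sign is not 13 separate observations.

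**Figure D1:**
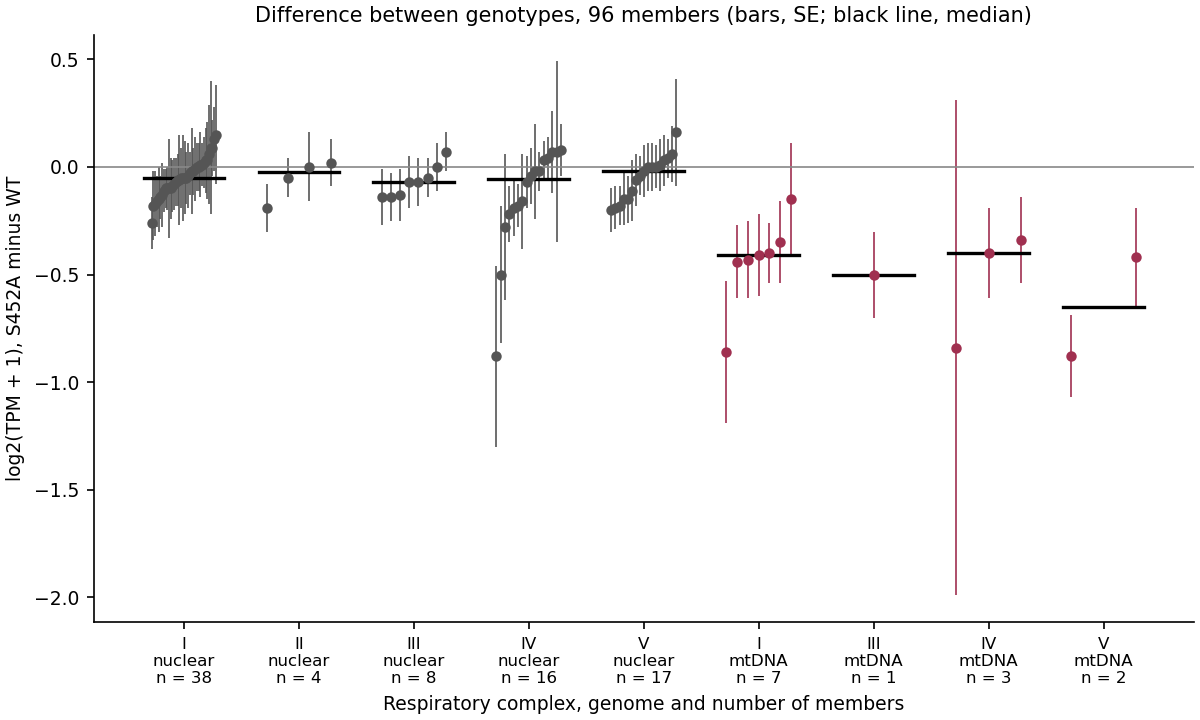
Difference in log2(TPM + 1), S452A minus WT, for the 96 members by respiratory complex and genome (mtDNA, mitochondrially encoded), with SE bars and a black line at the median. Nuclear medians lie between -0.07 and -0.02 and mitochondrial medians between -0.65 and -0.40. The wide bar belongs to mt-Co3.

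ATP synthase is where the mitochondrial difference looked largest. Its channel subunit a is encoded by mt-Atp6 (chrM:7927-8607). In WT libraries 1 to 5 mt-Atp6 was at 3772, 3806, 2962, 2535 and 3599 TPM and in S452A libraries 1 to 5 at 2078, 2077, 1372, 2374 and 1295 TPM. Every WT library lay above every S452A library, the closest being S452A 4 and WT 4. On the log2 scale the difference was -0.88 (SE 0.19, 95% interval -1.29 to -0.48, limma adjusted p = 0.847), with an exact permutation p of 0.00794, the smallest that 5 against 5 can give. The copy Gm10925 was listed at 59.5 to 80.0% of the sum of both genes, a larger share in S452A libraries 1 to 5 (70.9, 73.8, 68.4, 74.8 and 80.0%) than in WT (60.1, 63.1, 62.8, 59.5 and 70.2%), except that S452A 3 was below WT 5. Summed with it, mt-Atp6 was at 9465, 10326, 7969, 6255 and 12075 TPM in WT and, in S452A, 7133, 7922, 4339.5, 9414 and 6483 TPM. These sums overlap, with S452A 4 above 2 of the WT libraries, and the log2 difference was -0.39 (SE 0.22, limma adjusted p = 0.952).

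mt-Atp8 (chrM:7766-7969), the small membrane subunit beside subunit a, had no copy averaging 1 TPM and was the member with the highest mean, 11522 TPM. The effect of length on TPM was not tested, and mt-Atp8, at 204 bases, is the shortest mitochondrially encoded member. It was at 12644, 14205, 11390.1, 8794 and 18957 TPM in WT 1 to 5 and 10140.5, 11164, 5896, 12918 and 9111 TPM in S452A 1 to 5. WT 5 was the highest and S452A 3 the lowest, and the other libraries overlapped. Its log2 difference was -0.42 (SE 0.23, limma adjusted p = 0.952).

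Complex IV takes its catalytic core, subunits 1 to 3, from mitochondrial DNA. mt-Co1 (chrM:5328-6872), which carries the oxygen-reducing centre, was at 9940.0, 11151, 8479, 6584 and 12645 TPM in WT 1 to 5 and 7336, 8280.3, 4821, 9898 and 6853 TPM in S452A 1 to 5. mt-Co2 (chrM:7013-7696), which receives electrons from cytochrome c, was at 8375, 8349.7, 6771, 5655 and 11023 TPM and 6861, 6368, 4241, 7944 and 6145 TPM. Both were highest in WT 5 and lowest in S452A 3, and every S452A library but S452A 3 lay within the WT range. Their log2 differences were -0.40 (SE 0.21) and -0.34 (SE 0.20), with a limma adjusted p of 0.952 for each. Gm29216, a partial copy of mt-Co1, held 2.03% of their sum on average and Gm28661, the copy of mt-Co2, 0.0564%.

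mt-Co3 (chrM:8607-9390) was the least steady member. As deposited it was at 2118, 2662, 1849, 51.5 and 2412 TPM in WT 1 to 5 and 212, 1099, 85.3, 1858 and 1928 TPM in S452A 1 to 5, a 51.7-fold range. WT 4, S452A 1 and S452A 3 were listed at 212 TPM or less, and the other 7 libraries at 1099 TPM or more. In those 3 libraries the identical Gm28437 held 98.9, 95.9 and 97.4% of the sum of both genes, and in the others 57.3 to 79.8%. The sums ran 6891, 7516, 5779, 4538 and 8748 TPM in WT and, in S452A, 5216, 5439, 3232, 6556 and 4517 TPM, a 2.71-fold range in which WT 5 was highest and S452A 3 lowest. The log2 difference went from -0.84 (SE 1.15) as deposited to -0.43 (SE 0.21) summed, limma adjusted p 0.961 and 0.952.

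**Figure D2:**
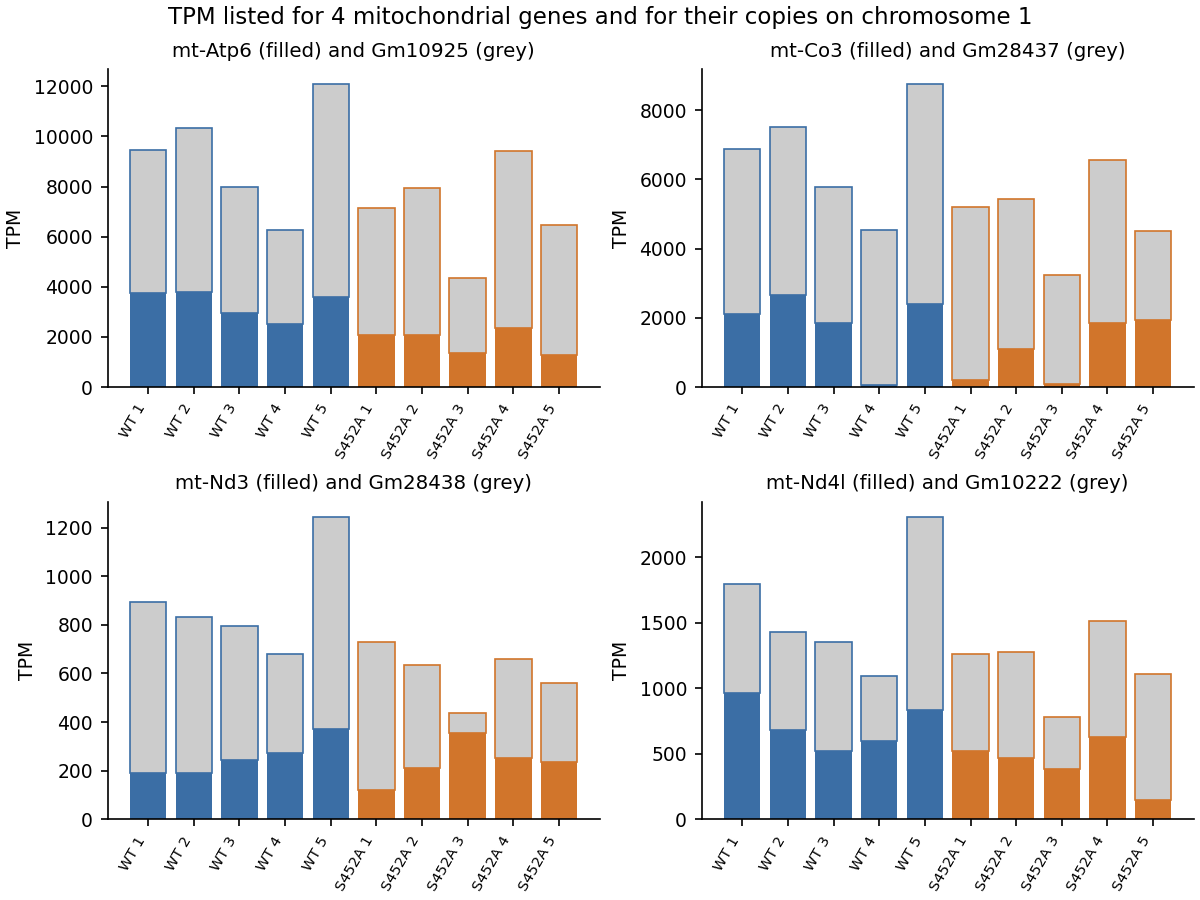
TPM by library of mt-Atp6, mt-Co3, mt-Nd3 and mt-Nd4l as listed (filled bars, blue for WT and orange for S452A) with their copies on chromosome 1 stacked above (grey). The split between gene and copy varies from library to library, most for mt-Co3 (57.3 to 98.9% listed under the copy) and mt-Nd3 (18.9 to 83.5%).

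Complex III has 1 mitochondrially encoded subunit, cytochrome b, which holds its quinone sites. mt-Cytb (chrM:14145-15288) had no copy averaging 1 TPM and was at 2464, 2093, 2135, 1651 and 3178 TPM in WT 1 to 5 and 1835, 1732, 1058, 2089 and 1465 TPM in S452A 1 to 5. WT 5 stood highest and S452A 3 lowest. S452A 4 lay within the WT range, as did S452A 1 and 2. On the log2 scale the difference was -0.50 (SE 0.20, limma adjusted p = 0.952, exact permutation p = 0.0635).

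The 7 mitochondrially encoded subunits of complex I form the proton-pumping core of its membrane arm. mt-Nd2 (chrM:3914-4951), one of the pumping subunits, was at 923, 791, 749, 694 and 1094 TPM in WT 1 to 5 and 687, 716, 507, 679 and 607 TPM in S452A 1 to 5. Of the 7 as deposited, mt-Nd2 had the smallest exact permutation p (0.0159) and a difference on the log2 scale of -0.40 (SE 0.14, limma adjusted p = 0.952). Only S452A 2 lay above the lowest WT library, WT 4. The other pumping subunits were mt-Nd4 (chrM:10167-11544), at 1463, 1273, 1134, 950.0 and 1796 TPM in WT and, in S452A, 1074, 1022, 684, 1188 and 905 TPM, and mt-Nd5 (chrM:11742-13565), at 721, 564, 524, 458 and 849 and 502, 489, 333, 502 and 438 TPM. Both had WT 5 highest and S452A 3 lowest, with log2 differences of -0.43 (SE 0.18) and -0.44 (SE 0.17) and a limma adjusted p of 0.952. In mt-Nd1 (chrM:2751-3707), at the join of the membrane and matrix arms, the WT mean was 1904 ± 486 TPM and the S452A mean 1476 ± 281 TPM (SD, n = 5), a difference on the log2 scale of -0.35 (SE 0.19).

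mt-Nd6 (chrM:13552-14070) is the only member on the other strand of mitochondrial DNA and overlaps the end of mt-Nd5 by 14 bases. It was at 634, 399, 431, 380.2 and 760.4 TPM in WT 1 to 5 and 434, 400.1, 291, 375 and 405 TPM in S452A 1 to 5, a difference on the log2 scale of -0.41 (SE 0.19, limma adjusted p = 0.952). WT 1 and WT 5 stood above the rest and the other 8 libraries overlapped. The library kit is directional per the labels, but whether strand was used in counting is not given in the sources used here.

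mt-Nd4l and mt-Nd3 have the copies on chromosome 1 described above, with which reads can be shared. mt-Nd4l (chrM:9877-10173) overlaps mt-Nd4 by 7 bases and was at 962, 685, 524, 598 and 833 TPM in WT 1 to 5 and 523, 470.2, 384, 631 and 147 TPM in S452A 1 to 5. S452A 5 stood lowest, and there the identical Gm10222 held 86.7% of the sum, against 45.4 to 64.0% in the other 9 libraries. Its log2 difference was -0.86 (SE 0.33) as deposited and -0.41 (SE 0.21) summed, with a limma adjusted p of 0.952 for each. mt-Nd3 (chrM:9459-9806), whose loop takes part in the active to resting change of complex I, was at 189.8, 192, 246, 273 and 371 TPM and 121, 210.1, 354, 251 and 236 TPM. Here S452A 3, the lowest library for 9 other members of mitochondrial DNA, was below WT 5 only, and Gm28438 held 18.9% of the sum there, against 57.9 to 83.5% elsewhere. Summed, mt-Nd3 was at 894, 834, 795, 682 and 1245 TPM in WT and, in S452A, 729.8, 635, 436, 659 and 560.0 TPM, with S452A 3 lowest. The difference moved from -0.15 (SE 0.26, limma adjusted p = 0.964) to -0.55 (SE 0.17, limma adjusted p = 0.952, exact permutation p = 0.0159). Its sign as deposited rested on S452A 1, without which it was 0.06.

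With copies summed, the differences of the 13 genes lay closer together. They ran from -0.55 to -0.34 with a median of -0.41, against -0.88 to -0.15 as deposited. Again 13 of 13 stayed below 0, 0 had genotypes that did not overlap, and 0 passed limma. An unadjusted p under 0.05 was reached by 5 of the 13, and by 656 of all genes tested in that fit. The fold between the highest and lowest library ran from 2.16 (mt-Nd2) to 3.22 (mt-Atp8). WT 5 was the highest and S452A 3 the lowest library for 13 of 13, against 10 and 9 of 13 as deposited. Without both of these libraries, left out after the values were seen, the median as deposited was -0.17 and 12 of 13 were below 0.

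**Figure D3:**
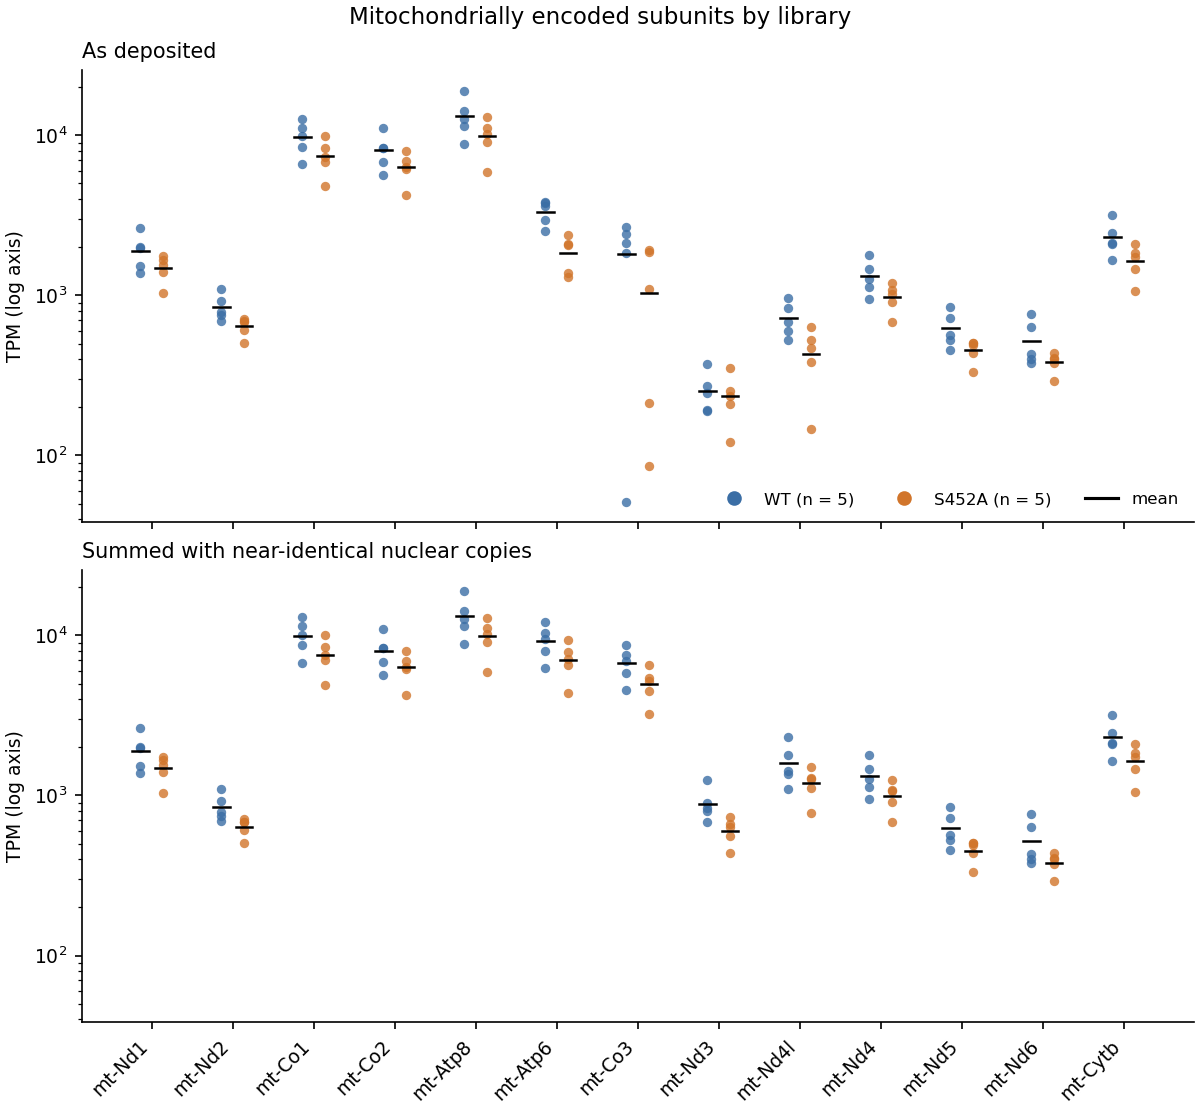
TPM (log axis) of the 13 mitochondrially encoded members in their order along mitochondrial DNA, each point a library (WT blue, S452A orange) and each bar a group mean, as deposited and with near-identical nuclear copies summed. The low points of mt-Co3 and mt-Nd4l are gone in the lower panel, where the range over libraries is 2.16- to 3.22-fold for each gene.

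With copies summed, mt-Atp8 (11522 TPM), mt-Co1 (8779), mt-Atp6 (8138), mt-Co2 (7178) and mt-Co3 (5843) formed an upper set, which lie next to one another along the genome. mt-Cytb (1970.0 TPM), mt-Nd1 (1689.9), mt-Nd4l (1392), mt-Nd4 (1158), mt-Nd3 (747), mt-Nd2 (745), mt-Nd5 (538) and mt-Nd6 (451) lay lower. Neighbours in this order overlapped over the 10 libraries, except mt-Co3 (3232 to 8748 TPM) and mt-Cytb (1058 to 3178 TPM). mt-Atp8 and mt-Atp6 share bases, as do mt-Nd4l and mt-Nd4, so gaps between their levels need not be gaps between separate RNAs. Of the other transcripts of this genome, the ribosomal RNA genes mt-Rnr1 and mt-Rnr2 averaged 3422 ± 587 and 2766 ± 551 TPM (SD, n = 5) in the WT mice against 2968 ± 615 and 2700.4 ± 711 TPM in the S452A mice. S452A 3, lowest for the mRNAs, had the highest mt-Rnr2 of all libraries, 3846 TPM. The 22 rows of mitochondrial tRNA genes were listed at 0 in every library.

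Together the 13 genes took 5.71 ± 1.43% (SD, n = 5) of all TPM in WT mice and 4.32 ± 1.02% in S452A mice with copies summed. The sums in WT 1 to 5 were 58320, 61301, 49212, 39244 and 77603 TPM and those in S452A 1 to 5 45136, 47221, 27756, 55578 and 40146 TPM. WT libraries held the 3 highest places, but WT 4 had rank 9 of 10 and S452A 4 rank 4. The 83 nuclear members took 1.36 ± 0.107% in WT and 1.31 ± 0.124% in S452A, and the sum of the mitochondrially encoded as deposited was 3.30 ± 0.881 times theirs in WT and 2.51 ± 0.688 times in S452A. The groups overlapped in each of these measures.

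**Figure D4:**
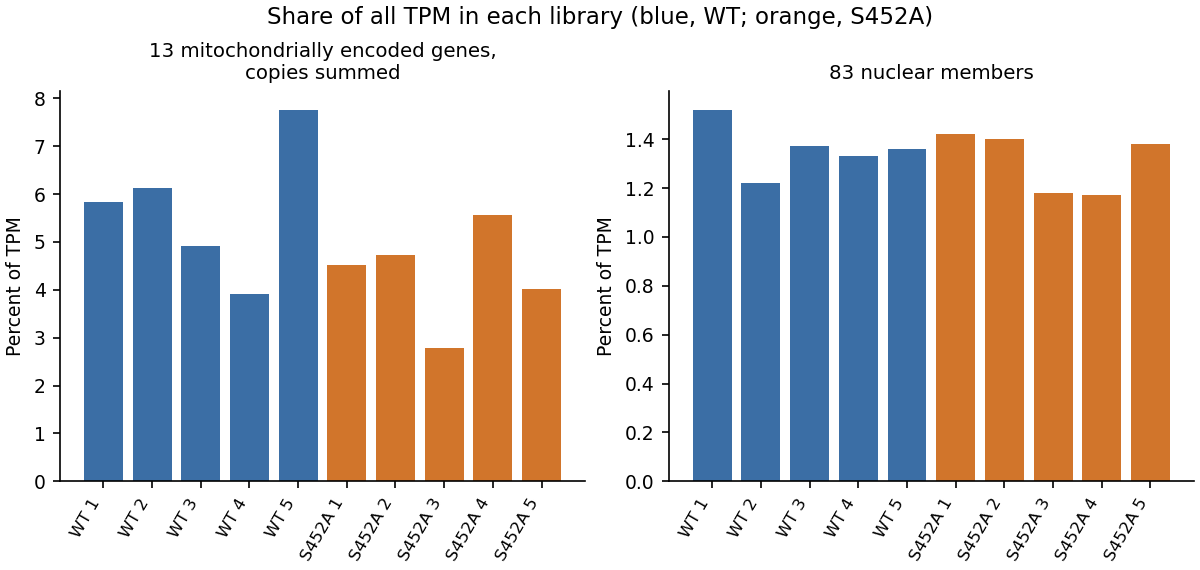
Percent of all TPM taken by the 13 mitochondrially encoded genes with copies summed (left) and by the 83 nuclear members (right) in each library, WT blue and S452A orange. The left panel spans 2.78 to 7.76% and the right panel 1.17 to 1.52%.

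Cell content moved with these sums in part. S452A 3, the lowest, had the highest sum of the 8 T cell genes (135 TPM) and the lowest sum of 6 fibroblast genes (71.5 TPM, against 127 to 315 in the others). WT 5 and WT 2, the highest, had T cell sums of 21.5 and 12.1 TPM, among the 3 lowest. S452A 1, at 15.0 TPM, shared that low T cell content and had rank 7 for the mitochondrial sum. The fibroblast sums of WT 5 and WT 2, 162.0 and 159.7 TPM, were not the highest. WT 3 and WT 4, of ranks 5 and 9 for the mitochondrial sum, had 315 and 207 TPM of fibroblast genes. WT 3 also had the T cell sum of rank 2, 126 TPM. The 4 libraries with the highest mitochondrial sums, WT 5, WT 2, WT 1 and S452A 4, also had the 4 highest sums of the 8 macrophage genes, 21925 to 23049 TPM against 16486 to 20758 TPM in the other 6. S452A 3, lowest for the mitochondrial sum, was at 19973 TPM of macrophage genes. With each library's mean over these T cell genes as a covariate, the median difference of the 13 genes was -0.40. The part of macrophage and of fibroblast content in the result was not tested.

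By complex, the nuclear members gave medians of -0.05 in complex I (27 of 38 below 0), -0.03 in complex II (3 of 4), -0.07 in complex III (6 of 8), -0.05 in complex IV (11 of 16) and -0.02 in complex V (10 of 17). The corresponding mitochondrial medians were -0.41 in complex I, -0.50 in III, -0.40 in IV and -0.65 in V, the last -0.41 with copies summed. Thus, in each complex with subunits from both genomes, every mitochondrially encoded member was further below 0 than the nuclear median. The 95% interval left out a 2-fold change in either direction for 80 of 83 nuclear members and a change of 0.5 on the log2 scale for 70. The same figures for the mitochondrially encoded were 10 of 13 and 0 of 13, and for all 13930 genes tested 12108 and 5243. Nuclear members also varied less over the 10 libraries: the fold between highest and lowest library had a median of 1.52, and was under 2 for 69 of 83, against a median of 2.63 and 0 of 13.

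Complex I, the NADH dehydrogenase, had nuclear members from 248 TPM (Ndufa3, a small membrane-arm subunit) to 5.12 TPM (Ndufa11b, annotated as a processed pseudogene), with a median of 87.8 TPM. Among nuclear core subunits, mean levels were 102 (Ndufs8), 99.5 (Ndufv2), 71.7 (Ndufs7), 70.6 (Ndufv1, which binds NADH), 56.1 (Ndufs3) and 22.8 TPM (Ndufs1, the largest iron-sulfur subunit). The differences of these named subunits ran from -0.17 (Ndufs3) to 0.03 (Ndufs1). Ndufs1 was the lowest of those named by TPM, and its highest library (S452A 5, 32.9 TPM) was below the lowest library of each of the others.

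The nuclear member of complex I with the smallest p was Ndufb10 (chr17:24722060-24724478), an accessory subunit of the membrane arm. It was at 185, 148, 173, 168 and 173 TPM in WT 1 to 5 and 167, 158, 112, 129 and 144 TPM in S452A 1 to 5. S452A 3, 4 and 5 lay below all WT libraries, while S452A 1 and 2 lay among them. On the log2 scale the difference was -0.26 (SE 0.12, 95% interval -0.52 to -0.01, limma adjusted p = 0.952, exact permutation p = 0.0476). In pairs of values, WT comes before S452A. Next came the accessory subunits Ndufs5 (chr4:123712710-123718202), at 69.1 ± 8.86 and 61.4 ± 6.76 TPM (SD, n = 5), and Ndufa7 (chr17:33824572-33838317), at 219 ± 25.2 and 199 ± 15.0 TPM. The core subunit Ndufs3 (chr2:90894634-90904827) was at 59.2 ± 7.14 and 53.0 ± 10.3 TPM. Their differences were -0.16, -0.14 and -0.17, with a limma adjusted p of 0.952 for each. With near-identical copies summed, those of Ndufs5 and Ndufs3 were -0.06 and -0.09.

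Complex II, succinate dehydrogenase, is also an enzyme of the citrate cycle, and its 4 genes are all nuclear. Sdhb, the iron-sulfur subunit, averaged 86.6 TPM, Sdha, the flavoprotein, 78.1, and the membrane anchors Sdhd and Sdhc 73.7 and 55.8 TPM, a 1.55-fold range of means. Neighbours in this order overlapped over libraries. Sdhb (chr4:140961203-140979193) was at 109, 81.3, 92.5, 79.8 and 99.9 TPM in WT 1 to 5 and 83.1, 78.2, 74.5, 75.8 and 91.9 TPM in S452A 1 to 5. WT 1 was highest and S452A 3 lowest, the genotypes overlapped, and the difference was -0.19 (SE 0.11, limma adjusted p = 0.952). Sdhd, Sdha and Sdhc differed by -0.05, -0.00 and 0.02.

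Complex III had means from 481 TPM (Uqcrq, a small subunit) to 64.0 TPM (Uqcrc2, a core protein), with a median of 115 TPM. Uqcrfs1, the Rieske iron-sulfur protein, was at 64.2 ± 5.09 TPM (SD, n = 5) in WT mice against 67.6 ± 3.33 TPM in S452A mice, a difference on the log2 scale of 0.07. Uqcrc2 was the steadiest of all 96 members, with 1.15-fold between its highest and lowest library, and differed by -0.05. The smallest p values belonged to Uqcrc1 (chr9:108936633-108949623), the other core protein, at 97.8 ± 7.90 and 88.9 ± 12.1 TPM, and to the small subunit Uqcr11 (chr10:80402997-80406830), at 141 ± 10.9 and 130.0 ± 26.1 TPM. Both differed by -0.14, with limma adjusted p of 0.952 and 0.955. That of Uqcr11 was -0.08 with its near-identical copies summed.

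Complex IV spanned the widest levels, 208-fold from Cox7c (526 TPM) to Cox6b2 (2.54 TPM), and holds isoforms known from other tissues. Cox6a1, Cox7a2, Cox6b1 and Cox8a are the forms of most tissues, at 319.7, 147, 522 and 446 TPM. The heart and muscle forms Cox6a2 and Cox7a1 made up 0.741 to 2.82% and 2.28 to 13.4% of their pairs over the 10 libraries, and Cox8b was listed at 0. The summed level of 6 muscle genes was at most 6.40 TPM, with Mb, the myoglobin gene, listed at 0 in every library. Cox6b2, a form of testis, made up 0.0648 to 1.35% of its pair, and Ndufa4l2, a hypoxia-induced relative of the complex IV subunit Ndufa4, 0.960 to 5.32%. These low members varied widely over libraries, and their differences (-0.88 for Cox6b2, -0.50 for Ndufa4l2, -0.28 for Cox6a2 and 0.07 for Cox7a1) had SE from 0.32 to 0.42. That of Cox6b2 was -1.34 with a pseudocount of 0.1, -0.41 with a pseudocount of 5 and -0.58 without WT 1.

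**Figure D5:**
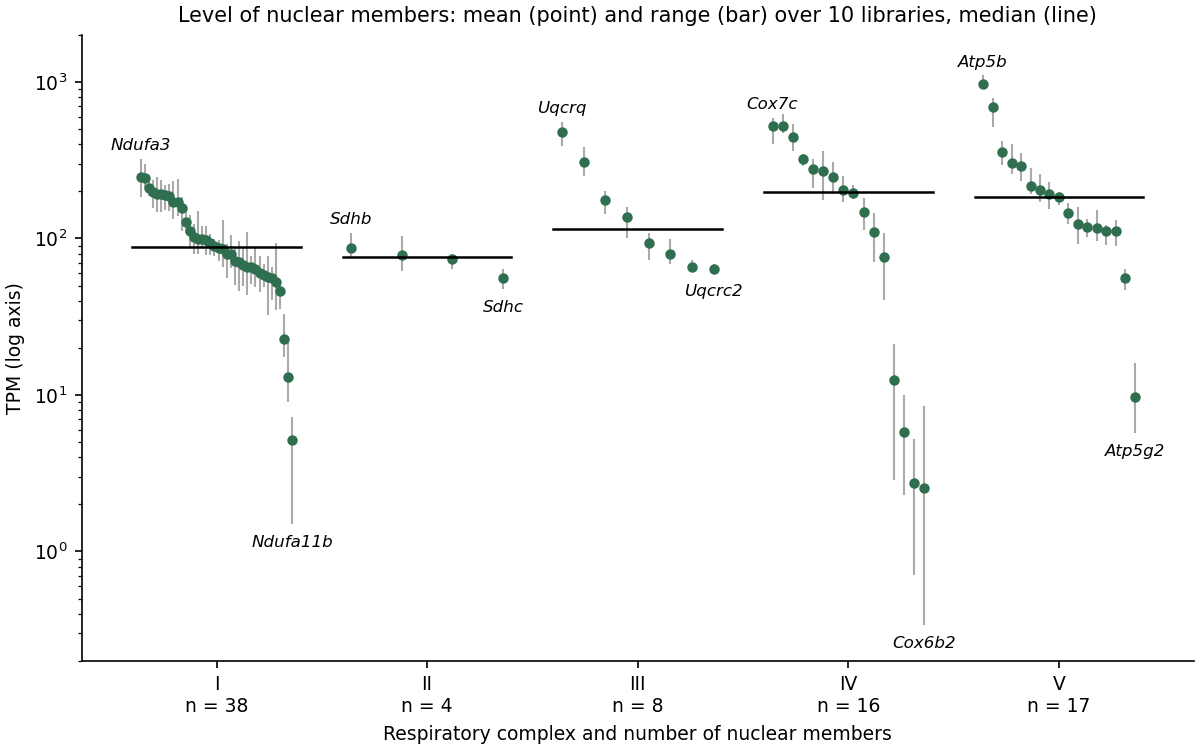
Mean TPM (points, log axis) and range over 10 libraries (grey bars) of the 83 nuclear members by complex, in order of level, with the median of each complex as a line and the highest and lowest member named. Medians are 87.8, 75.9, 115, 199 and 183 TPM for complexes I to V, and the lowest points of complex IV are Cox6b2 and Ndufa4l2.

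Cox6b2 (chr7:4751792-4753094) was at 8.50, 3.13, 2.20, 3.95 and 0.770 TPM in WT 1 to 5 and 1.3, 0.340, 2.05, 0.510 and 2.61 TPM in S452A 1 to 5. WT 1 was highest, and the other libraries overlapped within 3.95 TPM (limma adjusted p = 0.952, exact permutation p = 0.0873). Cox5a (chr9:57521274-57532426), a matrix-side subunit, was at 249, 202, 213, 203 and 211 TPM and 216, 185, 170.0, 180.3 and 196 TPM. Only S452A 1 lay above the lowest WT library, WT 1 stood apart at the top, and the difference was -0.18 (SE 0.10, limma adjusted p = 0.952). Cox7a2l, a supercomplex factor named with this family, was at 192 ± 11.6 and 197 ± 17.7 TPM (SD, n = 5) and differed by 0.03.

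Complex V had the member with the highest nuclear level, Atp5b, the catalytic beta subunit, at 957 ± 50.6 TPM (SD, n = 5) in WT mice against 989 ± 95.7 TPM in S452A mice. Atp5a1, the alpha subunit, which assembles with beta in equal number, was at 216 ± 10.4 and 219 ± 35.6 TPM, below Atp5b in every library. The differences were 0.04 and 0.00. Of the 3 genes for the c ring subunit, whose mature protein is the same, Atp5g3 made up 76.0 ± 1.97% of their sum in WT and 75.0 ± 2.55% in S452A, Atp5g1 20.5 ± 2.30% and 21.3 ± 2.58%, and Atp5g2 the rest. With near-identical copies summed the order turned over: Atp5g2 made up 50.3 ± 1.97% in WT and 52.0 ± 0.924% in S452A, Atp5g1 26.9 ± 1.71% and 25.5 ± 1.28%, and Atp5g3 22.8 ± 0.919% and 22.5 ± 1.26% (SD, n = 5). Both subunits with the smallest p are small membrane subunits of the dimer region. Atp5md (chr19:47083464-47090647) was at 166, 131, 163, 168 and 151 TPM in WT 1 to 5 and 131, 144, 145, 124 and 134 TPM in S452A 1 to 5, and Atp5k (chr5:108433244-108434448) at 418, 374, 339, 381 and 380.3 and 304, 373, 294, 344 and 352 TPM. WT 2 lay within the S452A values of Atp5md, as did WT 3 in those of Atp5k. The differences were -0.20 (limma adjusted p = 0.952) and -0.18 (limma adjusted p = 0.952). That of Atp5md was 0.02 with its near-identical copies summed.

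Some nuclear members likewise share sequence with processed pseudogenes, which are gene copies made from mRNA. Copies averaging at least 1 TPM were annotated for 23 nuclear members (30 copies, 29 of them processed pseudogenes), and held over 50% of the sum for 9: Atp5g1, Atp5g2, Atp5h, Atp5l, Cox5b, Cox7c, Ndufa12, Ndufb4 and Uqcrb. Gm10175 held 97.9% of its sum with Atp5g2, 448 TPM against 9.69 TPM, and Gm10039 held 76.0% of its sum with Atp5g1, so the shares of all c ring genes depend on where those reads were counted. The aligned transcripts of Gm10039 and Atp5g1 also differ in length, 411 and 4715 bases. The effect of length on the summed shares was not tested. Ndufb4, a membrane-arm subunit, was at 13 TPM, while Ndufb4c, identical to it over 390 bases and itself a member by name, was at 171 TPM. Of the members, 4 are annotated as processed pseudogenes (Ndufb4c, Ndufs6b, Ndufa11b and Cox6c2). Summing copies left the nuclear median at -0.05 (59 of 80 genes below 0).

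Cox6c, a small membrane subunit of complex IV (chr15:35925886-35938246), and Cox6c2 (chr12:56373593-56373823) are a pair with more differences. They differ at 7 of 231 bases of the coding sequence (capitals). Cox6c was at 294 ± 28.7 TPM in WT mice against 260.0 ± 45.8 TPM in S452A mice, and Cox6c2 at 109 ± 30.7 and 112 ± 18.4 TPM (SD, n = 5). The log2 differences were -0.19 (SE 0.13) and 0.07 (SE 0.19).
Cox6c: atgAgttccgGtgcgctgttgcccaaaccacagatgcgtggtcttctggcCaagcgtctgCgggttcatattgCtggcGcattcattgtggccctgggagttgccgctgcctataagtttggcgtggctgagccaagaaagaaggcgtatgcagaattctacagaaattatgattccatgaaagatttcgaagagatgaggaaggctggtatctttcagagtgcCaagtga
Cox6c2: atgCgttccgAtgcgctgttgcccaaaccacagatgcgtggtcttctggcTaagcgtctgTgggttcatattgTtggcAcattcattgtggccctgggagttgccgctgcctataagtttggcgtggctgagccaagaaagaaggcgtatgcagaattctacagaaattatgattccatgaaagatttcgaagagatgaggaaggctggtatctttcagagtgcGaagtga

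Promoters of the nuclear members are known to bind the respiratory factors NRF1, GABPA (an ETS factor), YY1 and ERR alpha. RefSeq promoters (GRCm38.p6, 250 bases before to 50 after the start) were matched by symbol for 65 of 83. Motifs were searched on both strands. The NRF1 core GCGCATG was in 13 of 65 (20%), against 4.04% of 27025 promoters of all genes, and the ETS core CCGGAAG in 16 (24.6% against 9.12%). Both were in 6 (9.23% against 0.670%), namely Atp5k, Atp5l, Cox6a1, Ndufb6, Sdhb and Uqcr11. The YY1 core ATGGCGG was in 9 (13.8% against 4.19%), 8 of which belong to complex I, as do 31 of the 65 promoters searched. The ERR core AAGGTCA was in 8 (12.3% against 4.66%). The SP1 core GGGCGG was in 26 (40.0% against 35.9%), and TATAAA in 6 (9.23% against 14.2%). No motif contains another. A match describes letters only and does not show binding, and base composition was not matched between members and all genes.

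Stretches before the start of Cox6a1, Ndufa6 and Cox5b show the NRF1 core in its context, in capitals, each on the strand of its gene and outside the transcribed part as GENCODE annotates it. In Cox6a1 (chr5:115349071-115349157) the core and its reverse complement overlap as a palindrome. In Ndufa6 (chr15:82354327-82354413) the core reads on the opposite strand and in Cox5b (chr1:36691396-36691448) on the given strand. Cox6a1, a complex IV subunit, averaged 319.7 TPM, Ndufa6, an accessory subunit of complex I, 189.9 TPM and Cox5b, a matrix-side subunit of complex IV, 246 TPM. They differed by -0.02, -0.02 and -0.04 between genotypes.
Cox6a1: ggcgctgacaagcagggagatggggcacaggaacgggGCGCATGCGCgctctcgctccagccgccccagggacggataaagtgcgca
Ndufa6: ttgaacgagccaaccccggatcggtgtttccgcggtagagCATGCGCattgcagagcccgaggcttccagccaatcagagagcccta
Cox5b: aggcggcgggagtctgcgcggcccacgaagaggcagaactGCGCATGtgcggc

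The rest of the pathway was read from 9 lists of 107 tested genes, of which 74 were below 0, 0 passed limma, and the median was -0.06. Among subunits outside the name rule 6 of 7 were below 0: Ndufab1, the acyl carrier protein of complex I, by -0.32 (61.5 ± 11 and 49.2 ± 9.09 TPM, SD, n = 5), and Atpif1, the inhibitor of ATP synthase, by -0.23. Cox4i1, the main form of a complex IV subunit, was at 667 ± 47 and 611 ± 76.7 TPM, with the lung form Cox4i2 at 0.0963 to 1.17% of the pair. The electron carrier genes Cyc1 and Cycs differed by -0.04 and -0.01.

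Assembly factors of complexes I to V were below 0 in 14 of 18, 2 of 4, 4 of 5, 16 of 24 and 3 of 4, with medians of -0.09, -0.09, -0.04, -0.08 and -0.21. An unadjusted p under 0.05 was reached by 1 of the 107 genes, Sdhaf4, and by 660 of all 13930 genes tested. Sdhaf4, an assembly factor for the flavoprotein of complex II, was at 19.6 ± 3.34 and 13.4 ± 1.11 TPM (SD, n = 5). Its difference was -0.50 (SE 0.14, limma adjusted p = 0.952). Acad9 and Tmem126b of complex I assembly differed by -0.45 and -0.19, Sdhaf1 of complex II by -0.19, Uqcc3 and Uqcc2 of complex III by -0.32 and -0.16, Surf1 and Pet100 of complex IV by -0.35 and -0.25, and Atpaf1 and Atpaf2 of complex V by -0.31 and -0.25.

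Genes that maintain and transcribe mitochondrial DNA were below 0 in 10 of 16 (median -0.08), and those that process its RNA in 14 of 19 (median -0.04). Tfam, which packages the genome and opens its promoters, was at 13.1 ± 2.91 and 16.6 ± 5.72 TPM, and Polrmt, the mitochondrial RNA polymerase, at 5.26 ± 0.805 and 6.61 ± 2.51 TPM (SD, n = 5). Their differences, 0.29 (SE 0.21) and 0.23 (SE 0.23), were among the 6 of the first list above 0. Mterf1a, a termination factor, differed by -0.44 and Top1mt, the mitochondrial topoisomerase, by 0.32. Fastkd2, an RNA-binding protein of mitochondria, differed by 0.53, Supv3l1, a helicase of RNA decay, by -0.30, and Lrpprc, which stabilises the mRNAs, by -0.03. The nuclear regulators whose motifs were counted differed by 0.13 (Gabpa) or less in size: Nrf1 was at 21.6 ± 2.56 and 21.5 ± 2.93 TPM, Gabpa at 18.2 ± 2.16 and 20.2 ± 4.26 TPM, and Esrra, encoding ERR alpha, at 25.8 ± 2.23 and 25.5 ± 5.05 TPM (SD, n = 5), and Gabpb2 differed by 0.11. Of the genes named in these last paragraphs, none passed limma (smallest adjusted p = 0.952).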

How the data were processed

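RNA sequencing libraries of 5 WT and 5 S452A mice were compared. The authors deposited 1 table of TPM values, made with STAR 2.7.9a and RSEM 1.3.0 on GRCm38.p6, per the submitters' processing notes; annotation release and parameters: not given in the sources used here. Each column summed to 1000000 within rounding, so no counts or depths can be had. Columns were matched to samples by description and groups taken from the genotype labels. Each library is labelled as its own mouse, and p-values measure the spread between mice; shared mouse numbers did not pair the samples.

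Tests covered the 13930 genes that reached 1 TPM in 5 or more libraries, as log2(TPM + 1) with limma 3.58.1 in R 4.3.3 (trend, 2-sided, genotype only, Benjamini-Hochberg over all genes). The scale understates differences of low genes. Single members were also compared by 2-sided exact permutation of mean TPM. The fit was tested on simulated data. Positions and transcripts came from GENCODE M21 (GRCm38), matched by Ensembl ID without version for 96 of 96 members. Near-identical copies were searched by blastn 2.17.0 (95% identity or more across 0.8 or more of whichever transcript is shorter), and their TPM summed with that of the member as an alternative. Promoters came from the RefSeq table of GRCm38.p6. Ndufa4 and Ndufa4l2 were placed in complex IV. Python 3.11.15, pandas 2.3.3, numpy 2.4.6 and matplotlib 3.10.9 did the rest.

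Named were the 13 mitochondrially encoded members and, among nuclear members of each complex, those of highest and lowest level, those of smallest p (4 in complex I, otherwise 2), core subunits and paralogues, and the 2 of smallest p in each list of other pathway genes. Ndufa6, Cox5b, Cox6c, Cox6c2, Cox7a2l, Cyc1, Cycs, Tfam, Polrmt, Lrpprc, Nrf1 and Esrra, and genes named for their copies or motifs, were chosen for their role or sequence after values were seen. One result that this rule would name is not reported here. The members, marker genes and lists were chosen with earlier results of these data known. Alternatives were other pseudocounts, filters, scalings, tests and covariates, the replicate number as a block, and leaving out libraries.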

Additional observations from a re-analysis of the deposited data

Results flagged for a closer look

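A library stood apart from the other 4 of its genotype (Dixon's test, critical value 0.71) in 2 of 54 groups of 5 values tested, where chance gives about 1 in 20. For mt-Co3 in WT the gap of WT 4 to the nearest library was 0.907 of the group's range: WT 4 was listed at 51.5 TPM and the other WT libraries at 1849 TPM or more. In WT 4 the identical copy Gm28437 held 98.9% of the sum of both genes. For Cox5a in WT the value was 0.736, with WT 1 at 249 TPM and the others at 213 TPM or less.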

How the results depend on the processing

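The number of genes passing over the whole table was 1, and 0 with at least 1 TPM required in all 10 libraries (565 at an unadjusted p under 0.05; the cause was not tested). It was also 0 with an exact Wilcoxon rank-sum test (445), but there the design fixed it: 5 against 5 allows no p below 0.00794, and the 90 genes whose groups do not overlap are too few for any to pass adjustment. No member passed under any other alternative run. The median of the mitochondrially encoded members stayed below 0 under each: -0.54 (without WT 4) to -0.31 (without S452A 3) when leaving out 1 library, -0.44 to -0.40 under the other planned settings, and -0.17 without WT 5 and S452A 3 together, chosen after seeing the data. Members at an unadjusted p under 0.05 numbered 7 and, with the exact Wilcoxon test, 4, against 660 and 445 of all genes.

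The nuclear medians ranged from -0.09 to 0.00 in complex I, -0.09 to 0.02 in II, -0.11 to -0.04 in III, -0.18 (without WT 2) to -0.03 in IV and -0.07 to 0.02 in V when leaving out 1 library. Signs turned for mt-Nd3 (-0.32 to 0.06 when leaving out 1 library, 0.06 without S452A 1), for mt-Co3 (0.15 without WT 5 and S452A 3 together) and for Atp5md (0.02 with copies summed); for Atp5md the summed copies are the whole change. As deposited, mt-Co3 ranged from -1.92 without WT 4 to -0.14 without S452A 3, and mt-Nd4l from -1.03 without S452A 4 to -0.51 without S452A 5.

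Same-numbered mice did not deviate together (correlations of -0.148 to 0.074 across genes, none best with its own number). With the mouse number as a replicate block, 1 gene and 0 members passed, 613 genes had an unadjusted p under 0.05, and the medians were -0.42 for mitochondrially encoded and -0.05 for nuclear members.

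The limits are few mice, a cell mixture that differs from the label, unknown depth, and a fixed TPM total, in which a lower share of abundant mitochondrial transcripts raises that of the rest. Rescaled to a total without the genes named mt-, which kept the chromosome 1 copies in it, the median of the mitochondrially encoded members was -0.44. The deposited values of mt-Atp6, mt-Co3, mt-Nd3 and mt-Nd4l depend on how reads were divided between identical genes or, for mt-Nd3, genes that differ by 1 base.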
